A study of Mus musculus with 5 samples.

Results

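The neural tubes of wild type mouse embryos were examined on their own, as a baseline for the tissue. The 2 samples genotyped EpoR +/+, labelled replicate 1 and replicate 2, were taken from the 5 samples of the study, and the 2 EpoR-null samples and the heterozygote were not compared. EpoR encodes the receptor for erythropoietin. All embryos came from crosses of EpoR+/- mice, so the wild type embryos, untreated and with both alleles intact, came from carrier parents. The age is E8.5 in the sample labels and E9.0 in the study's methods. The tubes were freed from other tissue by hand and with enzyme, and polyadenylated RNA was sequenced. Whether each library came from 1 embryo is not stated beyond the replicate numbers, and each replicate is called an embryo here.

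At this stage the neural plate is folding and closing into a tube. Nearly all of its cells are dividing progenitors, which are sorted along 2 axes. Along the head-to-tail axis, Otx2 and its partners mark the forebrain and midbrain, and Hox genes mark the hindbrain and spinal cord, with higher-numbered paralogue groups switched on later and further caudally. Along the back-to-belly axis, bone morphogenetic protein (BMP) and Wnt signals from the roof plate and Sonic hedgehog from the floor plate and notochord divide the progenitors into bands, each with its own transcription factors. The first neurons are born at these ages, neural crest leaves the dorsal edge, and primitive erythrocytes and new vessels surround the tube.

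Replicate 1 had 23894580 reads assigned to genes and replicate 2 had 41169218, of 23284 genes listed. Levels are given as CPM, the counts scaled to the total of these reads in each library and expressed as counts per 1000000, and a count of 3 reads equals 0.126 CPM in replicate 1 and 0.0729 CPM in replicate 2, which is the level that a count of 0 still allows. A gene was called detected when it reached 1 CPM in both embryos, and 12283 genes (52.8% of those listed) did so. Levels of different genes are compared only as CPM per kb of exon, which was known for 99.0% of the 12497 genes with a mean of at least 1 CPM. Pairs of values are given in the order replicate 1, replicate 2. A gene is counted as past a fold on the log2 scale with 0.5 CPM added, among the 12497 genes tested, whereas each fold printed for a gene is the plain ratio of its CPM values and can be larger for low genes. With 1 library per embryo, a difference between the embryos has no replicate check, and its interval covers counting error only.

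Of the 5 genes used to check the tissue, 4 were present and 1 was not. Sox2, a transcription factor of neural progenitors, stood at 275 and 283 CPM. Pax6, which marks intermediate and ventral progenitors, stood at 170.3 and 199 CPM, and Pax3, which marks the dorsal tube, at 79.9 and 66.9 CPM. Hoxb1, a hindbrain gene, stood at 36.2 and 26.1 CPM. Otx2, which marks the forebrain and midbrain, had 8 and 1 reads. Its level was 0.335 CPM in replicate 1 (95% Poisson interval 0.145 to 0.6597) and 0.0243 CPM in replicate 2 (0.000615 to 0.135), so the gene of the rostral territory was at or near the limit of detection in both.

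The most abundant RNAs were those of protein synthesis, protein folding, glycolysis and the cytoskeleton. Eef1a1, which brings aminoacyl-tRNA to the ribosome, stood at 4334 and 4603 CPM per kb and led the order by length in both embryos. The ribosomal stalk protein gene Rplp1 (1979 and 2366 CPM per kb), the chromatin and growth gene Ptma (2184 and 2012) and the chaperone gene Hsp90ab1 (1788 and 1962) followed. The nucleolar gene Npm1 stood at 1248 and 1321 CPM per kb and the chaperone gene Hspa8 at 1032 and 1279. Tubb5 (990.1 and 1139.7 CPM per kb) and Actg1 (844 and 966) were the most abundant tubulin and actin genes. Genes named as cytosolic ribosomal proteins took 6.24% and 6.67% of all reads. This is a minimum, since reads that align to more than 1 place were not counted and many of these genes have processed copies, and Ptma and Eef1a1 share that limit.

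Glycolytic genes were high as a group, and all 16 were detected. Pkm2 (pyruvate kinase) stood at 797 and 943 CPM per kb, Ldha (lactate dehydrogenase) at 791 and 848 and Gapdh at 569 and 657. Of the hypoxia-response list, 13 of 15 genes were detected, led by Ldha and the glucose transporter gene Slc2a1 (254 and 313 CPM per kb), whereas Car9, a carbonic anhydrase that hypoxic cells switch on, stood at 0.293 and 0.291 CPM and the vasodilator gene Adm at 0.293 and 0.656 CPM. Ldha outnumbered Ldhb, its sister subunit, with 18.5 and 17.2 CPM per kb for the latter. Of the hexokinases, Hk2 stood at 28.1 and 31.2 CPM per kb and Hk1 at 3.97 and 3.82. Eno1 was low, at 3.52 and 3.96 CPM, and is uncertain, since a near-identical copy can take its reads out of the count. The 10 most abundant genes took 6.61% and 4.99% of all reads, and the 45S ribosomal RNA precursor Rn45s, at 23016 and 5370.2 CPM, differed by more than that gap.

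Progenitor genes were abundant and close between the embryos. All 18 of the neural progenitor list were detected, against 52.8% of all genes, with a median log2 difference of 0.00 (replicate 2 minus replicate 1). The intermediate filament gene Vim stood at 189 and 219 CPM per kb, Sox2 at 134 and 137 and the filament gene Nes at 100.2 and 92.05. Lin28a, which keeps early progenitors from maturing by blocking let-7, stood at 82.1 and 104 CPM per kb, and Hmga2, a chromatin protein of young progenitors, at 90.3 and 82.4. The related Lin28b reached 21.4 and 22.4. The glial lineage gene Fabp7 stood at 31.6 and 25.05 CPM per kb. All 28 cell cycle genes were detected as well. Ccnd2 stood at 172 and 182 CPM per kb, Ccnd1 at 101 and 108 and Ccnd3 at 13.4 and 15.8, an order of the D cyclins that held in both embryos. Cdkn1a, an inhibitor induced by p53, was low at 0.789 and 0.9298 CPM per kb, whereas the inhibitor Cdkn1c stood at 47.7 and 46.6.

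Along the head-to-tail axis, forebrain and midbrain genes were near the limit of detection and hindbrain genes were present. Of 20 forebrain genes 3 were detected, among them Sp8 (43.2 and 37.8 CPM) and Foxd1 (13.1 and 12.3), which are also used elsewhere in the embryo. Six3 had 0 and 4 reads, Rax, which specifies the eye field, 0 and 1, and Emx2, a cortical gene, 0 and 1. A total of 9 forebrain genes had no more than 3 reads in either embryo. Of 12 midbrain and isthmus genes 4 were detected. Wnt1 stood at 23.5 and 26.7 CPM and is also a roof plate gene of the spinal cord. En1 had 21 and 12 reads and En2 0 and 1, although Pax2, which the spinal cord later uses too, reached 1.67 and 1.51 CPM. Fgf8, the organizer signal of the isthmus, had 4 and 4 reads, or 0.167 and 0.0972 CPM.

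In the hindbrain list 15 of 17 genes were detected. Hoxa2 stood at 23.8 and 24.9 CPM per kb and Hoxb2 at 16.7 and 16.9. Gbx2, which borders the Otx2 territory and is also used in the caudal plate, stood at 9.86 and 12.1 CPM per kb. Egr2 (Krox20), the gene of rhombomeres 3 and 5, had 1 and 11 reads and did not reach 1 CPM, and Cyp26c1, of the rostral hindbrain, had 0 and 1. The dissection limits at the rostral end are not given in the sources used here. The absence of a gene and of the cells that express it cannot be told apart in bulk RNA, nor can fewer cells of a type and less RNA per cell.

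**Figure D1:**
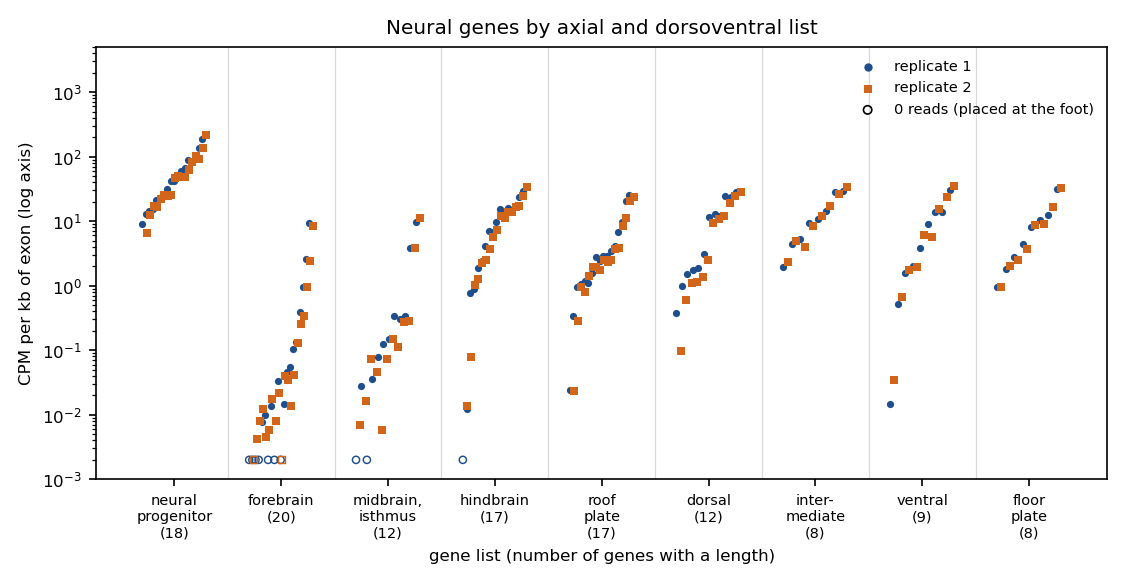
Levels of neural genes in CPM per kb of exon on a log axis, by list, for replicate 1 (circles) and replicate 2 (squares). Each pair is 1 gene, genes are sorted by level within a list, and open symbols are genes with 0 reads. All 18 progenitor genes lie above 6 CPM per kb, whereas most forebrain and midbrain genes lie below 1.

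Most Hox genes of groups 1 to 9 were present, at differing levels, and the caudal edge differed between the embryos. Of the 27 genes of paralogue groups 1 to 9, 25 were detected, and of the 12 genes of groups 10 to 13 none reached 1 CPM in both. Hoxb9 was the highest, at 107 and 102 CPM per kb. Hoxd4 followed at 48.9 and 35.1, Hoxb8 at 33.4 and 30.3 and Hoxb3 at 30.5 and 29.5. Within groups 1 to 3 the median log2 difference was 0.02, within groups 4 and 5 it was -0.27, and within groups 6 to 9 it was -0.44, with all 12 of the last lower in replicate 2. All genes tested had a median of -0.0035.

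At the caudal edge the embryos parted. Hoxc9 stood at 13.9 and 5.42 CPM, 2.56-fold (95% counting interval 2.15 to 3.04) lower in replicate 2. Hoxa9 stood at 10.6 and 3.81 CPM, a difference of 2.78-fold (95% counting interval 2.27 to 3.41), and Hoxd8 at 4.604 and 0.874 CPM, 5.26-fold (95% counting interval 3.58 to 7.899). All 3 were still present in replicate 2, with 36 to 223 reads. Hoxd9 had 70 and 1 reads, 121-fold (95% counting interval 20.9 to 4831) lower in replicate 2. Hoxa10 had 69 and 2 reads, 59.4-fold (95% counting interval 15.8 to 501) lower. Hoxc10 had 174 and 0 reads and was at least 99.9-fold lower in replicate 2, taking 3 reads as its limit there, and the counting interval of the ratio starts at 80.4-fold. These 6 genes were the only Hox genes past 2-fold, and 0.336% of all genes tested were past 2-fold lower. The genes come from the HoxA, HoxC and HoxD clusters. In the HoxB cluster, groups 6 to 9 summed to 409 and 380.1 CPM, and Hoxb9 itself stood at 275 and 261 CPM. Neighbouring Hox transcripts overlap, and reads in 2 genes at once were not counted, so levels of single Hox genes are uncertain by that much.

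**Figure D2:**
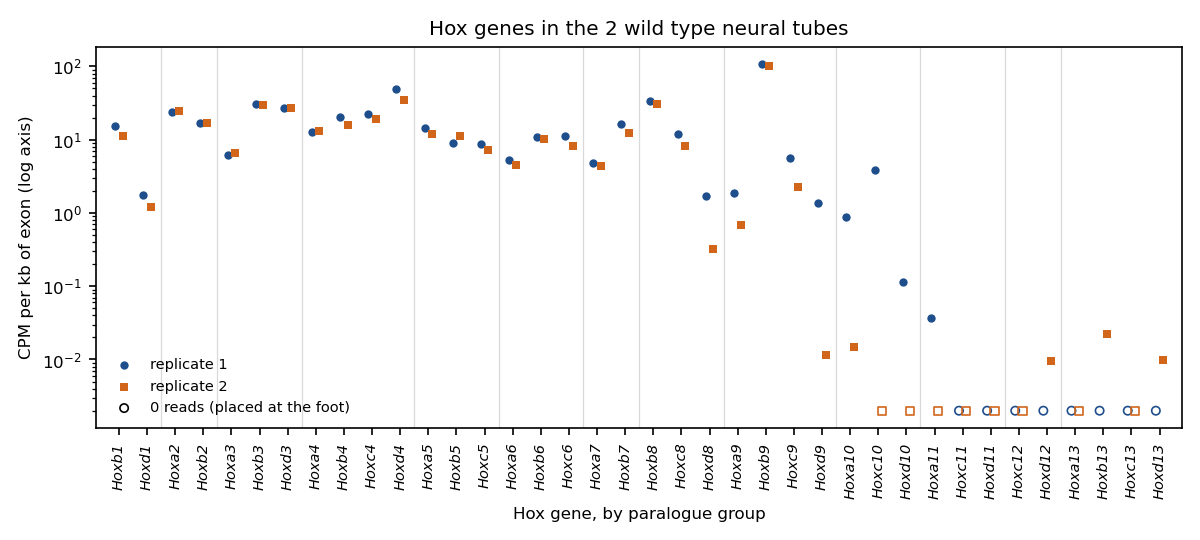
Levels of 38 Hox genes in CPM per kb of exon on a log axis, ordered by paralogue group (grey lines), for replicate 1 (circles) and replicate 2 (squares). The symbols lie close together up to group 7 and separate from Hoxd8 on, except Hoxb8, Hoxc8 and Hoxb9, and groups 11 to 13 are at 0 to 2 reads.

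Genes of the tail bud and caudal neural plate did not follow the Hox edge as a group. Of 14 listed, 8 were detected, and with 0.5 CPM added 1 (Cdx4) was over 2-fold lower in replicate 2 and none over 2-fold higher. T (brachyury), a gene of the tail bud and notochord, stood at 6.91 and 11.1 CPM, higher in replicate 2. The caudal signal Wnt3a (18.8 and 23.6 CPM), which is also in the roof plate list, and the homeobox gene Cdx1 (2.34 and 3.401) were also higher there. Nkx1-2, of the caudal epiblast, stood at 3.097 and 3.55 CPM, a ratio of 1.15 whose 95% counting interval (0.86 to 1.54) includes 1. Cdx4 (1.76 and 0.559 CPM) and Cdx2 (3.06 and 1.43 CPM), relatives of Cdx1, were lower, by 3.15-fold (95% counting interval 1.85 to 5.48) and 2.13-fold (95% counting interval 1.49 to 3.06). Evx1, too low to be tested, had 7 and 1 reads, 12.1-fold (95% counting interval 1.55 to 544) lower. Of the 9 list genes tested 6 were higher in replicate 2 and 3 lower, against 6153 higher of all 12497 tested. Tbx6, of the presomitic mesoderm, had 13 and 17 reads, Msgn1 had 1 and 0, and Cyp26a1, the tail bud enzyme that degrades retinoic acid, stood at 0.753 and 0.607 CPM.

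Along the dorsoventral axis every level of the tube was represented. Of the roof plate list, 16 of 17 genes were detected. The zinc-finger genes Zic1 and Zic2 led it, at 25.2 and 23.6 and at 20.9 and 20.3 CPM per kb, and Lmx1a, which specifies the roof plate, stood at 14.02 and 13.3 CPM. Gdf7, a BMP of the roof plate, stood at 1.55 and 2.74 CPM. Of the dorsal list 11 of 12 were detected. The dorsal homeobox gene Msx3 stood at 28.6 and 28.6 CPM per kb and Olig3, of the most dorsal progenitor domains, at 23.95 and 24.2. Of the proneural genes, Neurog2 (24.9 and 19.3 CPM per kb) lay above Neurog1 (12.2 and 11.8) and Neurog1 above Atoh1 (1.01 and 0.607). The order held in both embryos, with wider gaps between neighbours than between the embryos.

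All 8 intermediate and all 8 floor plate genes were detected, and 8 of 9 ventral genes. Among intermediate genes Irx3 stood at 29.001 and 33.97 CPM per kb and Dbx1, of the p0 domain, at 28.5 and 26.7. Among ventral genes Olig2, of the motor neuron progenitor domain, stood at 30.5 and 34.97 CPM per kb, and Nkx6-1 at 14.1 and 15.5. Nkx2-2 and Nkx2-9 mark the most ventral band, p3. Nkx2-9 stood at 17.6 and 30.4 CPM and Nkx2-2 at 5.82 and 5.68 CPM. Nkx2-1, which is restricted to the ventral forebrain within the tube, had 1 and 4 reads. In the floor plate the axon guidance gene Ntn1 stood at 31.9 and 32.8 CPM per kb, Shh at 12.6 and 16.4 and Foxa2 at 8.02 and 8.57.

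Dorsal genes were slightly lower in replicate 2, and ventral genes had no stable direction. The dorsal list had a median log2 difference of -0.33, with 9 of 11 genes lower in replicate 2, and the ventral list one of 0.16, with 6 of 8 higher, which became -0.013 once the trend of the differences on gene length and GC content was removed, against -0.36 for the dorsal list. Of all 12497 genes tested 6153 were higher in replicate 2 and 6344 lower. No tested gene of the roof plate, dorsal, intermediate, ventral or floor plate lists passed 2-fold. Nkx2-9 came closest on the scale with 0.5 CPM added, 1.73-fold (95% counting interval 1.54 to 1.93) higher in replicate 2 as a plain ratio. Among genes over 1.5-fold apart, a class of 1.31% higher and 1.86% lower of all genes tested, the ventral list had 2 higher (Nkx2-9 and Nkx6-2) and 1 lower (Prdm8), the roof plate list had Gdf7 higher and Msx2 lower, and the dorsal list had none. Without the added 0.5 CPM, the low dorsal genes Atoh1 (2.13 and 1.29 CPM) and Gsx2 (2.89 and 1.92 CPM) were also over 1.5-fold lower. The dorsal gene Gsx1, too low to be tested, had 16 and 7 reads, 3.94-fold (95% counting interval 1.53 to 11.3) lower in replicate 2.

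Neuronal genes were present at lower levels than progenitor genes and were lower in replicate 2. The list medians were 6.04 and 3.68 CPM per kb for newborn neurons and 42.02 and 47.02 for progenitors. Of 23 newborn neuron genes with a count, 21 were detected. Tubb3, a neuronal tubulin, stood at 85.2 and 72.4 CPM per kb. Dcx, a microtubule protein of migrating neurons, stood at 34.5 and 14.96 CPM, 2.305-fold (95% counting interval 2.07 to 2.56) lower in replicate 2. The motor and sensory neuron gene Isl1 stood at 26.95 and 14.9 CPM, the neuronal bHLH gene Nhlh2 at 32.1 and 16.5 and the neurofilament gene Nefm at 57.9 and 34.9. Of the 21 genes tested 18 were lower in replicate 2, against 6344 of all 12497 tested. A total of 10 were over 1.5-fold lower, against 1.86% of all genes, and the list median was -0.51. Among the exceptions were Gap43 (26.1 and 26.1 CPM) and Syp (10.4 and 11.003). Chat and Lhx1, markers of mature motor neurons and of dorsal and intermediate interneurons, stayed under 1 CPM.

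All 15 neural crest genes were detected. Sox10, which migrating crest cells need, stood at 20.3 and 15.9 CPM, Foxd3, an early crest gene, at 7.03 and 4.88, and Tfap2b at 29.7 and 17.03. Erbb3, the neuregulin receptor of crest and glia, stood at 11.1 and 6.39 CPM. Of these genes 11 were lower in replicate 2, Tfap2b and Erbb3 over 1.5-fold, against 6344 of the 12497 genes tested lower and 1.86% over 1.5-fold lower. Crabp1, which binds retinoic acid in hindbrain, crest and neurons, was the exception by level, at 652 and 857 CPM per kb.

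Signalling genes were read by pathway, from ligand to target. In the hedgehog list 16 of 18 genes were detected. The ligand gene Shh stood at 12.6 and 16.4 CPM per kb, while Ihh had 1 and 1 reads and Dhh 3 and 11. The receptor gene Ptch1 stood at 10.2 and 12.6 CPM per kb, the transducer Smo at 43.7 and 45.1, and the transcription factor genes Gli3 at 18.3 and 17.8 and Gli2 at 10.8 and 12.5. Gli1, a direct target that reports pathway activity, stood at 82.9 and 133 CPM, 1.61-fold (95% counting interval 1.53 to 1.696) higher in replicate 2. As a target of the pathway too, Ptch1 (145 and 178 CPM) was also higher in replicate 2, by less than 1.5-fold. Hhip, also of this list, was close between the embryos at 9.04 and 9.5 CPM (ratio 1.05, 95% counting interval 0.89 to 1.25). Of the 16 list genes tested 11 were higher in replicate 2 and 5 lower, with a median log2 difference of 0.08. Of all 12497 genes tested 6153 were higher and 6344 lower.

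In the Wnt list 36 of 43 genes were detected and no gene tested was over 1.5-fold apart with 0.5 CPM added, although the plain ratios of the low ligand genes Wnt7b (2.34 and 1.51 CPM) and Wnt2b (1.26 and 0.802 CPM) were. Ctnnb1, encoding the transducer beta-catenin, stood at 259 and 262 CPM per kb. The secreted inhibitors Sfrp2 (109 and 122 CPM per kb) and Sfrp1 (74.5 and 85.8) exceeded every Wnt ligand listed. Of the ligands Wnt1 (9.87 and 11.2), Wnt3a (6.81 and 8.56), Wnt7a (7.402 and 7.17) and Wnt4 (5.57 and 5.05) were highest by their mean per kb, and Wnt8b, a forebrain ligand, had 2 and 10 reads. Fzd7 led the receptors at 52.8 and 51.1 CPM per kb. The feedback targets Axin2 (122 and 112 CPM) and Nkd1 (49.97 and 53.8 CPM) were present in both.

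The BMP list had 25 of 27 genes detected. Its ligands were low, Bmp7 at 4.69 and 5.64 CPM, Bmp6 at 3.68 and 3.67 and Bmp4 at 2.43 and 1.82, with Bmp2 under 1 CPM at 0.335 and 0.704. The receptor gene Bmpr1a stood at 26.4 and 22.8 CPM per kb against 2.02 and 1.18 for Bmpr1b. The targets Id3 (74.4 and 95.7 CPM per kb) and Id1 (36.5 and 46.2) were high, and the antagonist Nog stood at 4.35 and 5.17 CPM. Id4 and Bmpr1b were over 1.5-fold lower in replicate 2, and Gdf7 over 1.5-fold higher.

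For fibroblast growth factors 18 of 22 genes were detected. The receptor genes Fgfr1 (15.5 and 16.7 CPM per kb), Fgfr2 (15.9 and 14.6) and Fgfr3 (21.8 and 20.3) lay close together, and Fgfr4 was lower at 0.993 and 1.08. Fgf15, a ligand of the neural tube, was the highest ligand, at 14.5 and 20.8 CPM per kb, and Fgf4, Fgf8 and Fgf17 had 0 to 5 reads each. The pathway target Dusp6 stood at 30.6 and 41.4 CPM. For retinoic acid, the synthetic enzyme gene Aldh1a2 stood at 111 and 105 CPM while Aldh1a1 had 4 and 3 reads and Aldh1a3 1 and 3. The binding protein gene Crabp2 stood at 609.8 and 723 CPM per kb. Among receptors Rxra (23.9 and 27.8 CPM per kb), Rxrb (18.1 and 18.7), Rara (16.1 and 20.1) and Rarb (12.9 and 14.2) were present, and Rarg was lower at 1.87 and 2.001. Of the degrading enzymes, Cyp26b1 stood at 51.02 and 35.1 CPM and the others under 1 CPM.

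In the Notch list 21 of 22 genes were detected. The ligand gene Dll1 stood at 31.6 and 30.5 CPM per kb, above Jag1 (11.2 and 10.9) and Dll3 (10.2 and 8.702). The receptor genes Notch1 (16.7 and 18.1 CPM per kb) and Notch3 (20.5 and 21.2) lay above Notch2 (9.47 and 8.58), and Notch4, an endothelial receptor, stood at 1.58 and 2.24. The target Hes5 (67.5 and 62.96 CPM per kb) exceeded Hes1 (13.1 and 12.6). Hes3, which early neuroepithelium uses, was 1.61-fold (95% counting interval 1.41 to 1.84) higher in replicate 2. Hes7, the oscillator of the presomitic mesoderm, had 0 and 3 reads.

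Erythropoietin signalling genes were low in these wild type tubes. Epor had 57 and 68 reads, or 2.39 CPM in replicate 1 (95% Poisson interval 1.81 to 3.09) and 1.65 CPM in replicate 2 (1.28 to 2.09). Epo, the ligand gene, stood at 2.97 and 3.303 CPM. Csf2rb, the common beta chain that can pair with the receptor, stood at 3.43 and 2.43 CPM, and its near-identical neighbour Csf2rb2 makes that uncertain. The kinase gene Jak2 stood at 5.33 and 4.602 CPM per kb, and of the transducers Stat5b stood at 4.35 and 4.78 against 0.141 and 0.143 for Stat5a and 1.42 and 1.52 for Stat3. Per kb, Epor (1.199 and 0.8304 CPM) was lower than the median of 6.47 over all genes tested. Erythroid cells also express Epor, and primitive erythroid genes were present in the same libraries, so the neural share of Epor reads was not tested. None of the 10 tested genes of the list was over 1.5-fold apart.

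Traces of other tissues came mainly from blood and vessels. The embryonic globin genes were the strongest. Hbb-y stood at 430.3 and 215 CPM, Hba-x at 372 and 231 and Hbb-bh1 at 282 and 156. Together with 8 further genes, among them the anion exchanger gene Slc4a1 (29.9 and 17.6 CPM) and the haem synthesis gene Alas2 (12.8 and 7.75 CPM), 11 of 15 erythroid genes were detected. The adult globin genes Hba-a1, Hba-a2, Hbb-b1 and Hbb-b2 had 0 reads in both, which their near-identical copies would also give, since reads aligning to both copies were dropped. Per kb, Hbb-y reached 679.7 and 339.98 CPM, above Sox2. The erythroid summed level was 1148 and 643 CPM. Of the 11 genes 10 were lower in replicate 2, against 6344 of all 12497 tested, with a median log2 difference of -0.68. Gata1 (1.76 and 1.02 CPM) and Klf1 (1.97 and 1.29 CPM), their transcription factors, were low in both.

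The promoters of Hbb-y and Hba-x are shown because these genes moved together between the embryos. The 200 bases before each start site are from RefSeq on GRCm38.p6, printed 5′ to 3′ along the gene, with the TATA box (TATAAA), a variant of it that some genes carry (CATAAA) and the CACCC box, on either strand, in capitals. The letters were chosen after the sequences were seen.
Hbb-y (chr7:103853208-103853407, strand -): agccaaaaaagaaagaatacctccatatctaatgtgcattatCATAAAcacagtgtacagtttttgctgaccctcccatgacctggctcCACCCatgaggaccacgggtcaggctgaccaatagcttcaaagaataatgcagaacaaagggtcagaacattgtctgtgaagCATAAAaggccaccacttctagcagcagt
Hba-x (chr11:32276400-32276599, strand +): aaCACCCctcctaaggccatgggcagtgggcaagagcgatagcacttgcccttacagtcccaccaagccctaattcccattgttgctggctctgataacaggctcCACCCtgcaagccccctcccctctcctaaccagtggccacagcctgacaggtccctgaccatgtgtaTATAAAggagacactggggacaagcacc
Hba-x has TATAAA at -28 to -23 from its start and Hbb-y has CATAAA at -29 to -24. Both have CACCC, the letters that the erythroid factor Klf1 reads in globin promoters, at -111 to -107 in Hbb-y and at -95 to -91 in Hba-x, and these letters occur in 45.5% of 32851 promoter windows of this length, TATAAA in 9.96% and CATAAA in 8.51%. The match is a description of the letters only.

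Endothelial genes were detected for 16 of 17 listed, Etv2 having 1 and 15 reads. The junction gene Cdh5 stood at 42.6 and 78.4 CPM, the VEGF receptor gene Kdr at 60.9 and 87.5 and the caveolar gene Plvap at 26.2 and 45.8. All 16 were higher in replicate 2, 10 of them over 1.5-fold against 1.31% of all genes, with a median log2 difference of 0.66. The vessel genes and the erythroid genes therefore moved in opposite directions. Macrophage genes were near the floor, Csf1r at 0.544 and 0.316 CPM and Cx3cr1 with 4 and 1 reads, and only Cd34 and Myb of 10 in that list were detected, neither being a macrophage gene.

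Mesenchyme and somite genes were detected in part. Of 18 mesenchyme genes 9 were detected, with Col3a1 at 119 and 102 CPM and Pdgfra at 26.6 and 19.8. Of 18 somite genes 9 were detected. Both counts are close to the 52.8% of all genes listed that were detected, so the counts alone do not set these lists apart. Among somite genes the levels differed. Meox1 stood at 21.5 and 20.99 CPM and the sclerotome gene Pax1 at 9.79 and 8.11, whereas the muscle genes Myod1 and Myf5 had 0 to 6 reads. In the surface ectoderm list 6 of 16 were detected. Krt8 (7.57 and 14.9 CPM) and Krt18 (5.901 and 8.26), keratins of simple epithelium, were among them, and Krt14 had 0 reads in both, Trp63 3 and 2 and Cdh1 stood at 1.004 and 0.923 CPM. Of 12 gut genes 3 were detected, and Afp and Ttr, which the yolk sac makes in quantity, had 0 to 3 reads. Heart genes gave 1 of 10 (Tbx20, also a hindbrain motor neuron gene, at 6.24 and 3.96 CPM), with Nkx2-5 at 0 and 2 reads. No placental gene of 6 was detected. The germ cell and pluripotency gene Pou5f1 had 1 and 2 reads. In the notochord list 6 of 7 genes were detected, 3 of them shared with the floor plate list, and Noto, a gene of the notochord itself, had 7 and 8 reads.

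**Figure D3:**
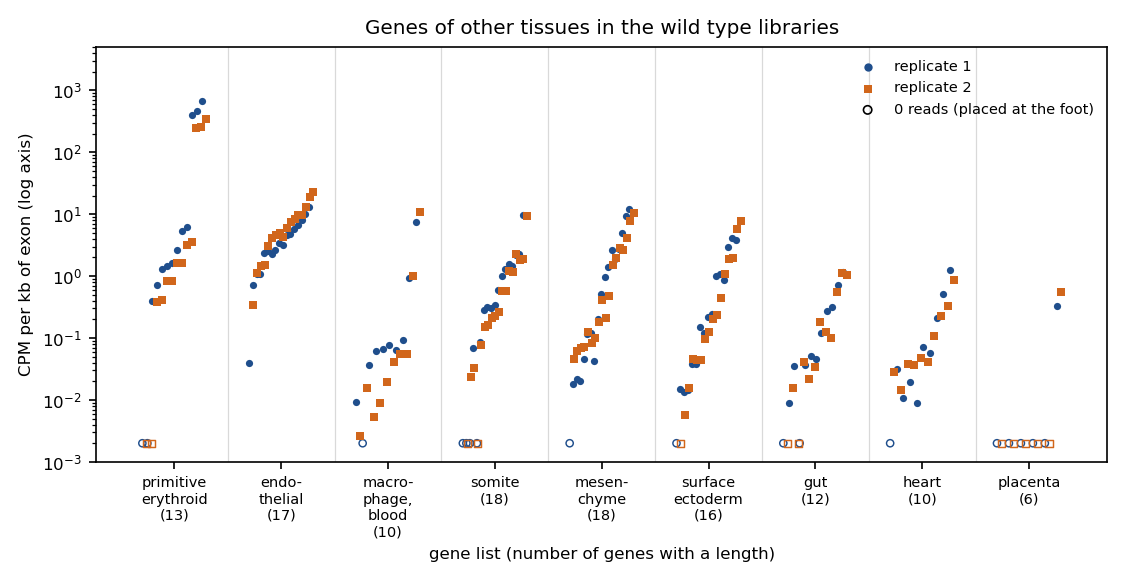
Levels of genes of other tissues in CPM per kb of exon on a log axis, by list, for replicate 1 (circles) and replicate 2 (squares), with open symbols for 0 reads. The 3 embryonic globin genes stand above every other gene shown, endothelial genes lie mostly between 1 and 23, and gut, heart and placental genes are mostly below 1.

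Both embryos expressed Y-linked genes. Ddx3y stood at 45.99 and 40.3 CPM, Kdm5d at 47.1 and 48.2, Eif2s3y at 27.4 and 31.3 and Uty at 23.98 and 23.8. Xist, the RNA that silences 1 X chromosome in female cells, had 8 and 12 reads. The embryos were therefore alike in these genes, and none of the 4 was over 1.5-fold apart.

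Across the genome the embryos were close. Of the 12497 genes tested 17 (0.136%) were over 2-fold higher in replicate 2 and 42 (0.336%) over 2-fold lower, on the log2 scale with 0.5 CPM added. From the 5th to the 95th percentile log2 differences ran from -0.39 to 0.35. The counts left little error at most levels. Among genes of 100 to 1000 CPM the median size of the log2 ratio was 0.10, against 0.019 from counting alone, and the 95% counting interval lay off 1 for 71.1% of them. Over all genes tested that share was 46.1%, so an interval off 1 separates these 2 libraries and not embryos in general.

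**Figure D4:**
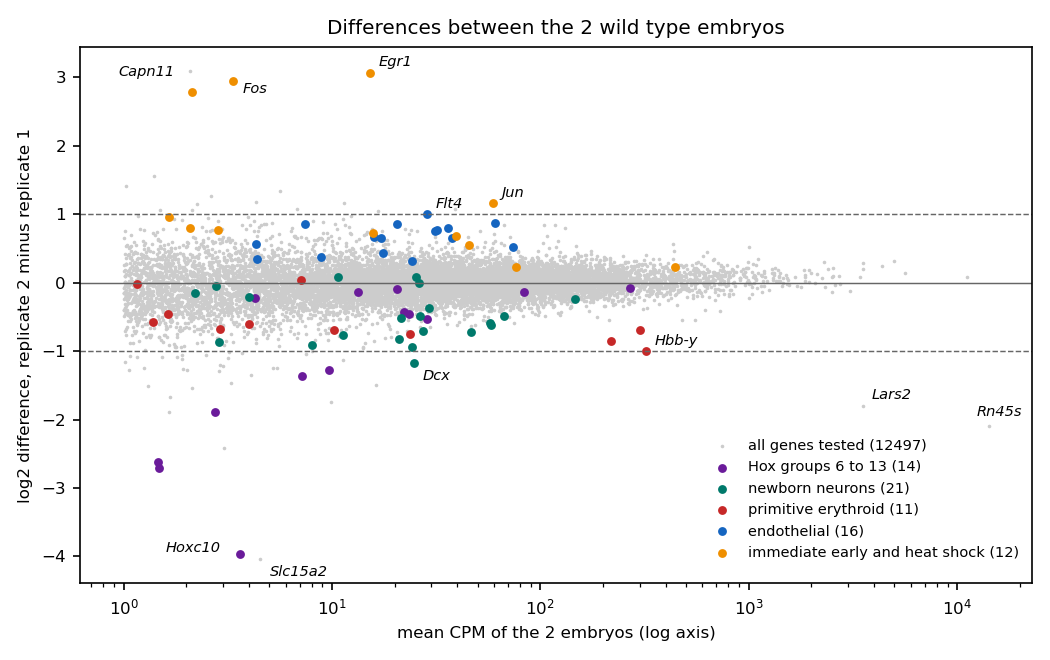
Log2 difference (replicate 2 minus replicate 1) against mean CPM on a log axis for each of 12497 genes (grey), with 5 gene lists in colour and dashed lines at 2-fold. A set of 6 Hox genes lies below the lower line, Egr1, Fos and Fosb near 3, endothelial genes between 0 and 1, and most erythroid and neuronal genes between 0 and -1.

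Among the largest increases in replicate 2 were immediate early genes, which cells switch on within minutes of a stimulus. Egr1, a zinc-finger factor, stood at 2.85 and 27.5 CPM, 9.68-fold (95% counting interval 7.57 to 12.6) higher in replicate 2. Fos had 9 and 259 reads, 16.7-fold (95% counting interval 8.66 to 36.9) higher, and its relative Fosb 4 and 169 reads, 24.5-fold (95% counting interval 9.403 to 91.04) higher. Jun, the partner of Fos in the AP-1 factor, stood at 36.4 and 82.2 CPM, 2.26-fold (95% counting interval 2.097 to 2.44) higher. All 12 tested genes of the immediate early and heat shock list were higher in replicate 2, 4 of them over 2-fold and 9 over 1.5-fold, against 0.136% and 1.31% of all genes tested. Ier2 (30.2 and 48.8 CPM), Dusp1 (11.7 and 19.7), Atf3 (1.97 and 3.69) and Junb (1.38 and 2.77) were higher by less, and the heat shock genes Hsph1 (410.3 and 480.4) and Dnajb1 (70.2 and 82.1) less than 1.5-fold. Egr3 had 1 and 3 reads.

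The promoters of Fos, Fosb and Jun are shown because these genes moved together, in the same form, with TGACG, the half-site of the cyclic AMP response element, and TGACATCA, a site in the Jun promoter, also in capitals.
Fos (chr12:85473690-85473889, strand +): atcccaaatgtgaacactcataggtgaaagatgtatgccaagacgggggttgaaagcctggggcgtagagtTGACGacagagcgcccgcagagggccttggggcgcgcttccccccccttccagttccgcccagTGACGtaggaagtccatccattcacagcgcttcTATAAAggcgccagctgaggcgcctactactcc
Fosb (chr7:19310046-19310245, strand -): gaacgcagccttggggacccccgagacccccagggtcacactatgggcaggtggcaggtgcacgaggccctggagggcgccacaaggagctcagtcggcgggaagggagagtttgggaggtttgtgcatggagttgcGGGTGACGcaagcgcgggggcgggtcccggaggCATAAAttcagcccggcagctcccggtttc
Jun (chr4:95052223-95052422, strand -): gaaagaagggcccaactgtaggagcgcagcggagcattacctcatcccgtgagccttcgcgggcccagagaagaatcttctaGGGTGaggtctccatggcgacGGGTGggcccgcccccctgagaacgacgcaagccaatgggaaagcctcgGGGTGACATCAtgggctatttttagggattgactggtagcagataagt
TGACG was found at -129 to -125 and at -66 to -62 in Fos, and at -60 to -56 in Fosb, where it overlaps CACCC read on the other strand. TGACATCA was found at -45 to -38 in Jun, where it overlaps the same letters. Of all windows 15.7% hold TGACG and 2.66% TGACATCA. Fos has TATAAA at -33 to -28, Fosb CATAAA at -30 to -25, and Jun neither.

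Several vessel genes were also among the largest increases by the naming rule, the 12 genes furthest apart in each direction at a mean of at least 5 CPM. The tight junction gene Cldn5 stood at 10.7 and 22.7 CPM, the scavenger receptor gene Stab1 at 25.03 and 53.2 and the natriuretic peptide receptor gene Npr1 at 4.23 and 9.42. Flt4, the receptor for VEGF-C and a member of the endothelial list, stood at 18.9 and 38.2 CPM. The carbonic anhydrase gene Car4 (8.16 and 16.5 CPM), the adaptor gene Grb7 (6.86 and 16.01), Krt8, Cpn1 (6.19 and 11.9), Arhgap27 (5.52 and 10.8) and the uncharacterized 1700011H14Rik (2.97 and 8.31) completed that set with Egr1 and Jun.

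Among decreases, Rn45s was 4.29-fold (95% counting interval 4.26 to 4.31) lower in replicate 2, and Lars2, listed as the mitochondrial leucyl-tRNA synthetase, was 3.47-fold (95% counting interval 3.44 to 3.51) lower, from 5521 to 1589 CPM. Together they took 2.85% of reads in replicate 1 and 0.696% in replicate 2. The neuronal adhesion gene Cntn2 stood at 43.3 and 17.3 CPM and the commissural axon receptor gene Robo3 at 6.11 and 2.09 CPM, both lower in replicate 2 as Dcx was. The desmosome gene Dsp stood at 15.5 and 4.25 CPM, 3.64-fold (95% counting interval 3.04 to 4.39) lower, while Krt8 was higher. Wdfy1 (24.3 and 8.31 CPM), Cd59a (7.53 and 2.89), A930011O12Rik (15.7 and 6.898) and the neuronal leucine-rich repeat gene Lrrn3 (10.3 and 4.74) were also among the decreases, as were Hoxa9 and Hoxc9.

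A few genes were present in 1 embryo and at the floor in the other, a set singled out after their values were seen. The peptide transporter gene Slc15a2 had 213 and 3 reads, 122-fold (95% counting interval 41.3 to 598) lower in replicate 2. The calpain gene Capn11 had 1 and 169 reads, 98.1-fold (95% counting interval 17.4 to 3897) higher. With Hoxc10, Egr1, Fos, Fosb, Hoxd9 and Hoxa10 these were the 8 genes furthest from parity with 0.5 CPM added. Small RNAs and histone genes also stood out after the values were seen. Rmrp, the RNA of an RNA-processing enzyme, stood at 5.44 and 0.607 CPM, and Rpph1, the RNA of ribonuclease P, at 4.39 and 1.603. Of 15 tested replication-dependent histone genes, whose mRNAs mostly end in a stem-loop rather than a poly(A) tail, 11 were lower in replicate 2 and 5 over 2-fold, against 0.336% of all genes tested, with a median log2 difference of -0.62, whereas the 10 tested histone genes of other kinds had one of 0.02. Of 44 small nucleolar RNAs tested 31 were lower and 13 higher in replicate 2, against 6344 lower of the 12497 genes tested. Of 9 microRNA genes tested 7 were lower and 2 higher, with a median log2 difference of -0.36. Mir25 was 1 of the 2 that were higher, with 8 and 71 reads, 5.15-fold (95% counting interval 2.48 to 12.4). Rn45s, Rmrp and Rpph1 moved the same way as the histone genes, and the part of RNA selection in these values was not tested.

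**Figure D5:**
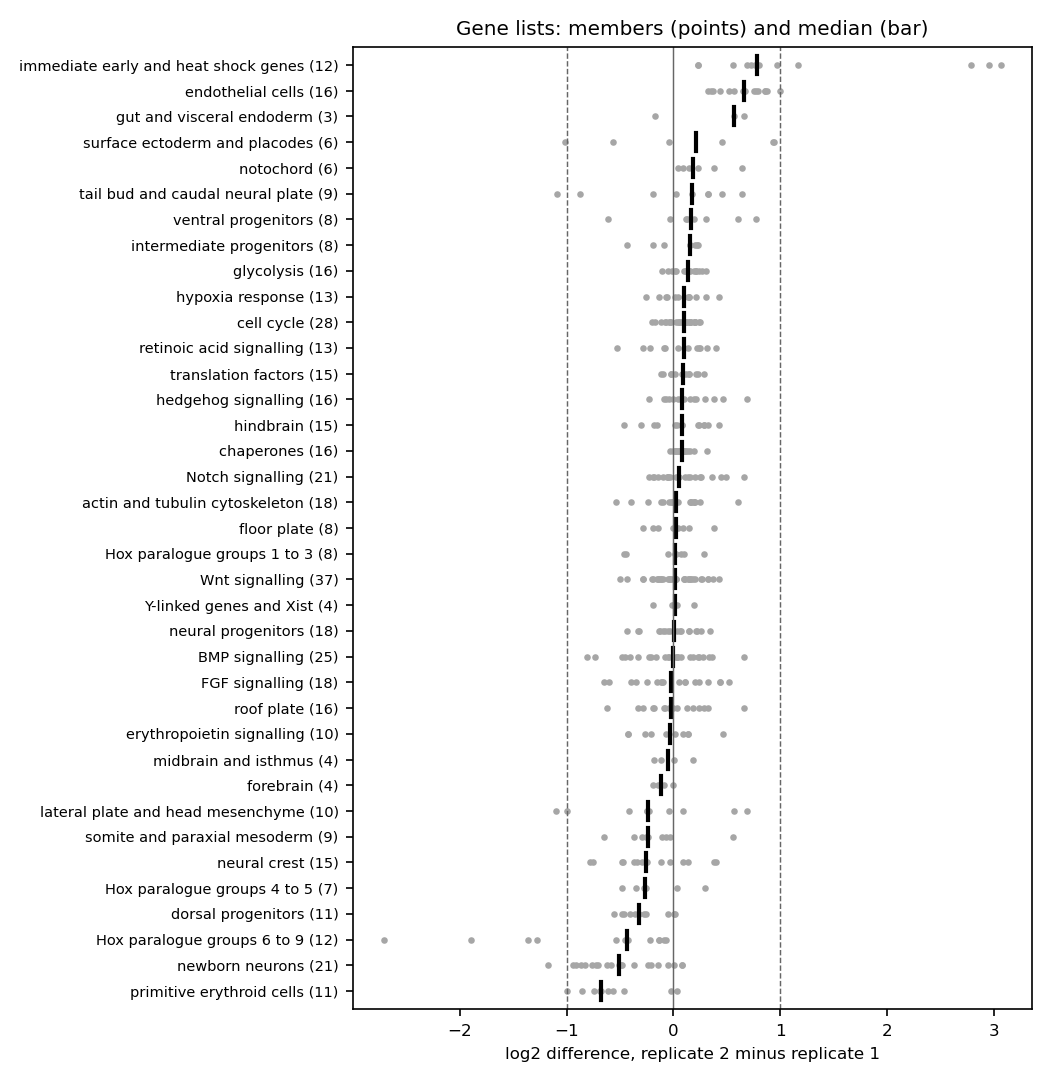
Log2 difference (replicate 2 minus replicate 1) of the members tested (grey points) and their median (black bar) in each gene list with at least 3 genes tested, with the number tested in brackets and dashed lines at 2-fold. Immediate early and endothelial genes have the highest medians (0.78 and 0.66), erythroid and newborn neuron genes the lowest (-0.68 and -0.51), and most neural lists lie near 0.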

How the data were processed

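RNA of the neural tubes was sequenced in the 2 wild type samples, which were grouped and numbered by the sample labels. Per the labels, the authors' processing notes name FastQC, Trimmomatic 0.32, TopHat2 2.1.0, HTSeq 0.6.1, edgeR and the genome mm9, whereas the methods name Tophat and hg19, and read lengths of 65 and 100 bp are both stated there. The authors deposited raw read counts per gene, without normalization. The tables of the other samples were not used here. The HTSeq summary lines were not used as genes, and reads assigned to no gene were 11.0% and 9.13% of reads on unique places.

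Counts were divided by each sample's total on genes to give CPM. Differences are log2(CPM + 0.5) of replicate 2 minus replicate 1 over genes with a mean of at least 1 CPM, called past 2-fold. With 1 library per embryo no test was run and no p-value is given. Intervals of a ratio are exact (Clopper-Pearson, 95%) on the 2 counts, those of a level exact Poisson, and both cover counting error only. Exon lengths are from GENCODE M21 (GRCm38) by symbol or RefSeq synonym, and no coordinates were converted. TMM and size factors came from edgeR 4.0.16 and DESeq2 1.42.0 in R 4.3.3, the rest from Python 3.11.15 with scipy 1.17.1. The calculations were tested on simulated data.

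The naming rule took members of 42 gene lists, the 25 highest genes by CPM and by CPM per kb, the 12 furthest apart in each direction at a mean of at least 5 CPM, and list members past 2-fold. The samples, lists and rule were chosen with earlier results of these data known. Lists not described above were translation factors (15 of 15 detected, median log2 difference 0.09), chaperones (16 of 16, 0.08), and actin and tubulin (18 of 18, 0.02). Some list members are not reported here by name.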

Additional observations from a re-analysis of the deposited data

Results flagged for a closer look

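Reads outside annotated genes made up 11.03% of the reads on unique places in wild type replicate 1 and 9.131% in wild type replicate 2, a part of the libraries that the gene levels do not use. The share was higher in the shallower library.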

How the results depend on the processing

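Counts of genes past 2-fold depended on the fold required and on how low genes are treated. The 17 genes higher in replicate 2 became 7 at a mean of at least 5 CPM, 8 with 2 CPM added, 29 with 0.1 CPM added, 9 when the whole counting interval had to pass 2-fold and 164 past 1.5-fold. The 42 lower genes became 12, 16, 67, 28 and 232 at a mean of at least 5 CPM, with 2 CPM, with 0.1 CPM, by the whole interval and past 1.5-fold. Scaling by TMM or size factors, thinning, no filter, leaving Rn45s and Lars2 out of the totals (added after seeing the data) and removing the trend on length and GC content kept both counts within 1.5 times. The number of genes detected ranged from 12413 to 12544 with 1 replicate left out, from 10193 to 13095 with the limit at 5 or 0.5 CPM, and the share of the 10 highest genes from 4.992 to 6.614%. List medians moved by more than their counting error in 9 of 148 refits. Removing the trend on length and GC content gave -0.10 for Hox groups 1 to 3, -0.0807 for intermediate progenitors, -0.0591 for retinoic acid signalling, 0.22 for Y-linked genes, 0.0357 for glycolysis, 0.0607 for translation factors and -0.0632 for actin and tubulin. Leaving Rn45s and Lars2 out gave 0.0590 for translation factors and 0.0475 for chaperones. The medians of the endothelial, immediate early, erythroid, newborn neuron and Hox group 6 to 9 lists kept their sign in every one of these refits. Of 33 named genes refitted under 5 settings, no direction changed, and 16 of 164 values fell under 2-fold, among them Lrrn3, Npr1, Cldn5, Postn and Dcx. With 25 genes ranked by level, 22 were shared when the longest transcript replaced the exon union. No paired analysis was possible because there is 1 group. Medians fell from 0.14 in the fifth of genes richest in GC to -0.12 in the poorest, and the cause was not tested. Depth limits single genes under about 1 CPM.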
